A study of Mus musculus with 12 samples.

Results

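The 8 genes described here encode secreted defence proteins of the gut epithelium: the Reg lectins Reg1, Reg3a, Reg3b, Reg3g and Reg4, the resistin-like protein Retnlb, the protease inhibitor Slpi and the siderophore-binding lipocalin Lcn2. They were picked by name, from families whose levels were already known from these libraries to vary, and make up 8 of the 55487 genes in the count table. All 8 were among the 19581 genes with enough counts to be tested. Because the choice was made with results in view, the calls and group differences given for these 8 genes are descriptions, not independent tests.

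The libraries came from C57BL/6 mice and formed 4 groups of 3. SI crypts and LI crypts were epithelium freshly isolated from the small and the large intestine, from 3 mice per group, and SI monolayers and LI monolayers were crypt epithelium from those regions that had been plated on Matrigel and cultured for 24 h, with pooled wells behind each library. The methods describe large intestine taken from the same mice as small intestine, but no label says which libraries share a mouse. Jejunal crypts were released with EDTA, whereas LI tissue was first digested with collagenase, dispase and DNase, so the region and the way of isolation cannot be told apart. All monolayers were seeded with a GSK3 inhibitor (CHIR-99021), a BMP receptor inhibitor (LDN-193189), a ROCK inhibitor (Y-27632), EGF, R-spondin-1 and Wnt3a. The medium was then changed to one that held Wnt3a, EGF, Noggin and R-spondin-1 for the rest of the culture. Culture time and the factors of both media cannot be told apart either.

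Reg proteins are small C-type lectins, which enterocytes and Paneth cells release into the lumen. Reg3b and Reg3g are antibacterial and are known to be induced by microbes through MyD88 signalling and through IL-22 and STAT3, and Reg4 is known from Paneth cells, enteroendocrine cells and the deep crypt secretory cells of the colon. Retnlb (RELMβ) is a goblet cell product, Slpi inhibits serine proteases of leukocytes, and Lcn2 withholds iron from bacteria by binding their siderophores.

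Totals ran from 59016196 to 76216530 counts per library, so that 3 counts corresponded to 0.0391 to 0.0525 CPM (counts relative to the library total, here with TMM factors). Levels under that are at the limit of detection. Paneth cell markers were present in SI libraries (summed level of 8 genes 3275 to 16758 CPM) and low in LI libraries (30.5 to 77.1 CPM), and enterocyte markers (8 genes) summed to 4708 to 22624 CPM in SI against 168 to 563 CPM in LI. Goblet markers (8 genes) summed to 17137 to 21651 CPM in LI crypts and 1635 to 1819 CPM in LI monolayers, and in SI they ranged from 6245 to 10690 CPM in crypts and from 5090 to 5238 CPM in monolayers. Immune markers (8 genes) summed to 120 to 197 CPM in SI crypts, 33.9 to 68.7 CPM in LI crypts and 6.44 to 8.30 CPM in monolayers. Counts of mitochondrial genes made up 2.25% to 9.16% of crypt libraries and 0.472% to 0.7499% of monolayer libraries. In bulk RNA, fewer cells of a type and less RNA per cell cannot be told apart.

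A pair of crypt libraries stood apart, and each moved several of the 8 genes. In SI crypts 3, the Paneth sum was 16758 CPM against 3275 and 6421 CPM in the other 2 libraries, and the enterocyte sum was the lowest of the group (14512 against 22624 and 20709 CPM). In LI crypts 2, the immune sum was 68.7 CPM against 36.6 and 33.9 CPM, with the plasma cell gene Jchain at 46.9 against 9.12 and 6.71 CPM, and the surface colonocyte sum was 7493 against 5428 and 4670 CPM. The part of these cell types in the results below was not tested, and values without these libraries are given where they change a call or move a called value by over 1.5 times.

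Of the 8 genes, 4 lie in a single cluster of 6 Reg genes on mouse chromosome 6 (chr6:78370657-78468872, GRCm38), which spans 98.216 kb and holds no other annotated gene. In order they are Reg3b (chr6:78370657-78373466, plus strand), Reg3d, Reg3a (chr6:78380709-78383827, plus), Reg2, Reg1 (chr6:78422711-78428667, plus) and Reg3g (chr6:78466269-78468872, minus). The members outside the cluster are Reg4 (chr3:98222156-98236748, plus), Retnlb (chr16:48816856-48818892, plus), Slpi (chr2:164354070-164389095, minus) and Lcn2 (chr2:32384633-32388252, minus). The longest coding transcripts of the Reg3 genes are alike, with 75.9% of aligned bases identical between Reg3a and Reg3b, 74.7% between Reg3b and Reg3g and 70.5% between Reg3a and Reg3g. In 7 of the 8 members, no stretch of 50 bases recurs in the transcripts of another gene. In Reg1, 32 of 855 such stretches (3.74%) recur elsewhere. The Slpi gene also overlaps the miRNA gene Mir7678 on the same strand.

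The sequences before the start sites of Reg3b, Reg3g and Reg3a are shown because these neighbours behaved differently in culture: the levels of Reg3b and Reg3g dropped and that of Reg3a overlapped between SI crypts and SI monolayers. Each is the last 178 bases before the RefSeq start (GRCm38.p6), 5′ to 3′ on the strand of the gene, at chr6:78370707-78370884 (plus) for Reg3b, chr6:78468875-78469052 (minus) for Reg3g and chr6:78380531-78380708 (plus) for Reg3a. The RefSeq start of Reg3b lies inside the GENCODE extent of the gene, so its stretch follows an upstream exon of a longer transcript model and ends in the first exon of another. The windows of Reg1, Slpi and Lcn2 likewise lie inside the GENCODE extent of their genes. Capitals mark TATAAA on either strand and TTCNNNGAA, a letter pattern of STAT binding sites.
Reg3b: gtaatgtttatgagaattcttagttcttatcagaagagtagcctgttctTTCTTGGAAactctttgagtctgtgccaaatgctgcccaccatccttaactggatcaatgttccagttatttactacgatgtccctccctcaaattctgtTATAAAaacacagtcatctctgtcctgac
Reg3g: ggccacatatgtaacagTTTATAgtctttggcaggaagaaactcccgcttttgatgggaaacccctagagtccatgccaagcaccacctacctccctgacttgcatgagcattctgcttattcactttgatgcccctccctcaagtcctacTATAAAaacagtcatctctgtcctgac
Reg3a: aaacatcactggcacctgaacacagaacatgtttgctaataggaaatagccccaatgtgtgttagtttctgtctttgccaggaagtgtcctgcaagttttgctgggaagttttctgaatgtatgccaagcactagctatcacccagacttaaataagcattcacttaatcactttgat
Reg3b and Reg3g both hold TATAAA just before the start, beginning 29 and 27 bases upstream, and Reg1 holds it 30 bases upstream. Among 32851 promoters of the table, 1.84% have TATAAA on the gene's strand with its first base 35 to 20 bases before the start. The Reg3a stretch holds none, and neither do the windows of Reg4, Slpi and Lcn2. TTCNNNGAA lay 129 to 121 bases before the start of Reg3b, the only such match among the 7 members with a window of 250 bases in the table, against 7.02% of all promoters on either strand. The Reg3b and Reg3g windows are identical at 70.0% of 247 aligned bases, with a longest shared run of 20 bases. The 21 pairs of Reg genes ranged from 56.3% to 71.9%, the highest being Reg3a with Reg3g. The 15 pairs that include Slpi or Lcn2 ranged from 54.5% to 69.4%. These matches describe letters and are not binding sites.

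**Figure D1:**
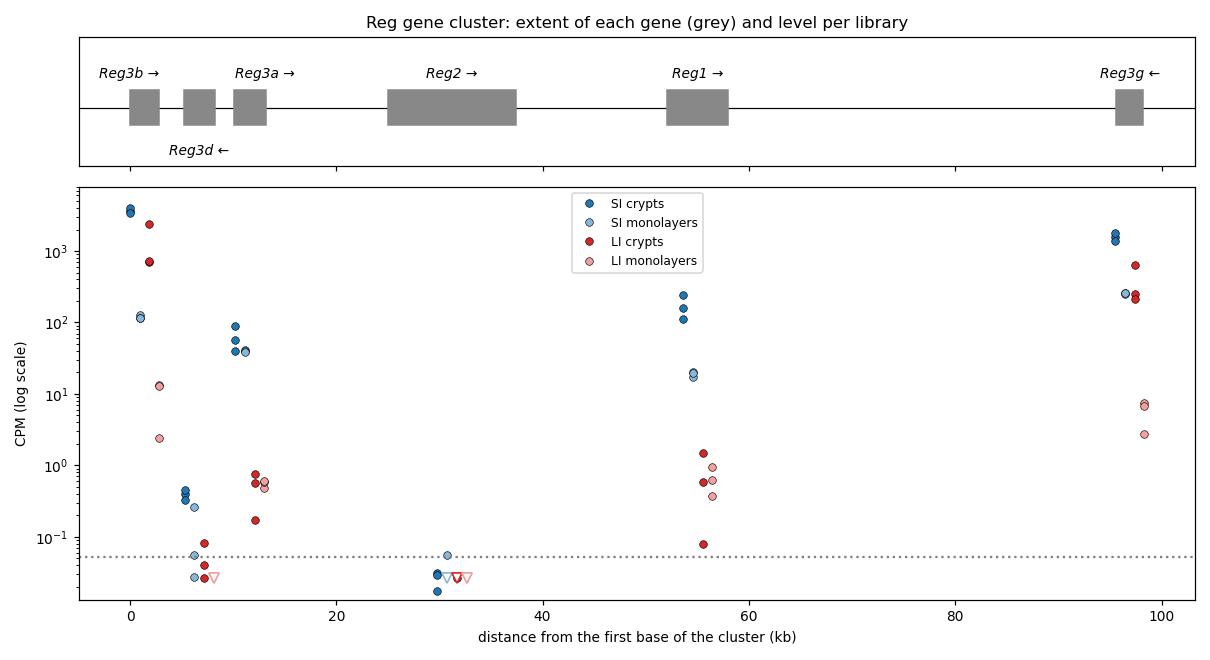
The Reg cluster on chromosome 6, with the extent and strand of each gene (top) and its level in each library (bottom, CPM on a log axis, points set side by side by group around the middle of the gene). The horizontal axis is the distance in kb from the first base of the cluster, the dotted line is the highest level that 3 counts give (0.0525 CPM), and open triangles, at an arbitrary height, are libraries with 0 counts. Reg3b and Reg3g, at the outer ends of the cluster, stand highest in SI and LI crypts, and Reg2 stands near or under the dotted line. Reg3d stands above the line in SI crypts (0.322 to 0.447 CPM) and SI monolayers 1, and by less in LI crypts 1 (0.0807 CPM) and SI monolayers 3 (0.0557 CPM).

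Reg3b and Reg3g, the antibacterial lectins, were the most abundant of the 8 in SI crypts. Reg3b stood at 3644, 3948 and 3363 CPM in SI crypts 1, 2 and 3, at 127, 114 and 116 CPM in SI monolayers, at 711, 2390 and 719 CPM in LI crypts and at 2.43, 13.3 and 12.8 CPM in LI monolayers. The 4 groups did not overlap, in the order SI crypts, LI crypts, SI monolayers and LI monolayers. LI crypts 2 was far above the other 2 LI crypt libraries, and LI monolayers 1 was the lowest library of all. Group means were 30.7 times lower in SI monolayers (119 ± 7.18 CPM, SD, n = 3) than in SI crypts (3652 ± 293 CPM) and 134 times lower in LI monolayers (9.49 ± 6.11 CPM) than in LI crypts (1273 ± 967 CPM), or 75.3 times lower without LI crypts 2.

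Reg3g stood at 1559, 1778 and 1404 CPM in SI crypts, 255, 248 and 257 CPM in SI monolayers, 251, 628 and 213 CPM in LI crypts and 2.72, 7.55 and 6.71 CPM in LI monolayers. SI crypts were above all others and LI monolayers below all others, whereas LI crypts and SI monolayers overlapped. LI crypts 2 and LI monolayers 1 were again the highest and the lowest of their groups. The mean was 6.23 times lower in SI monolayers (254 ± 4.69 CPM) than in SI crypts (1580.3 ± 188 CPM) and 64.3 times lower in LI monolayers (5.66 ± 2.58 CPM) than in LI crypts (364 ± 230 CPM), or 40.9 times lower without LI crypts 2.

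The balance between these neighbours was turned over in SI culture. Per kb of transcript, the ratio of Reg3g to Reg3b was 0.434, 0.457 and 0.424 in SI crypts and 2.04, 2.22 and 2.25 in SI monolayers, so that Reg3b was the higher of the pair in every SI crypt library and Reg3g in every SI monolayer library. In LI it was 0.358, 0.267 and 0.300 in crypts and 1.14, 0.578 and 0.534 in monolayers, where the library that had crossed 1 was LI monolayers 1, with 168 counts of Reg3b and 188 of Reg3g. These ratios use no scaling between libraries. Together, Reg3b and Reg3g made up 78.3% to 90.9% of the summed CPM of the 8 genes in SI crypts, 61.6% to 62.7% in SI monolayers, 46.4% to 70.0% in LI crypts and 4.31% to 17.1% in LI monolayers.

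Reg3a and Reg1, which mouse pancreas and small intestine are known to make, were SI genes in both preparations. Reg3a stood at 88.1, 56.2 and 39.7 CPM in SI crypts and 41.1, 40.01 and 38.8 CPM in SI monolayers, against 0.565, 0.756 and 0.170 CPM in LI crypts and 0.478, 0.581 and 0.603 CPM in LI monolayers. The SI groups overlapped each other, as did the LI groups, and every SI library was above every LI library. The SI crypt mean (61.3 ± 24.6 CPM) was 1.53 times that of SI monolayers (39.97 ± 1.11 CPM) and 123 times that of LI crypts (0.497 ± 0.299 CPM).

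Reg1 stood at 240, 112 and 162 CPM in SI crypts, 17.5, 20.3 and 19.7 CPM in SI monolayers, 1.48, 0.583 and 0.0783 CPM in LI crypts and 0.377, 0.956 and 0.618 CPM in LI monolayers. Both SI groups were separate from each other and above LI, and the LI groups overlapped. The mean was 8.94 times higher in SI crypts (171 ± 64.2 CPM) than in SI monolayers (19.2 ± 1.48 CPM). Per kb of transcript, the ratio of Reg3a to Reg1 was 0.402, 0.547 and 0.269 in SI crypts and 2.57, 2.15 and 2.17 in SI monolayers, so this pair too changed its order in SI culture. Acinar cells of the pancreas also make Reg1. Of 10 acinar markers, 6 were at 0 in SI crypts (Cpb1, Cela2a, Prss2, Pnlip, Amy2a5 and Cel) and Cela1 alone was over 1 CPM, within a sum of 11.4 to 12.3 CPM.

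The low Reg1 levels of LI crypts followed the order of the enterocyte gene Fabp1, a fatty acid binding protein of the small intestine, which was at 9.55, 2.78 and 0.339 CPM in LI crypts 1, 2 and 3 and at 844 to 1516 CPM in SI crypts. Reg1 was lowest in LI crypts 3, at 6 counts, as was Fabp1. Fabp1 was also the gene nearest in profile to Reg1 over the same 12 libraries, so the shared order is no independent result. Reg3a did not keep this order, at 0.565, 0.756 and 0.170 CPM in LI crypts 1, 2 and 3. Whether these counts arose in LI epithelium was not tested.

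Reg4 was expressed in both regions. It stood at 223, 360 and 1045 CPM in SI crypts, 166, 163 and 171 CPM in SI monolayers, 211, 179 and 381 CPM in LI crypts and 69.4, 64.7 and 60.05 CPM in LI monolayers. The crypt groups overlapped, SI monolayers were below both and LI monolayers were below all. SI crypts 3 was far above the other 2 SI crypt libraries, and the Paneth sum had the same order over these libraries (3275, 6421 and 16758 CPM). Means were 543 ± 441 CPM in SI crypts, 167 ± 4.10 CPM in SI monolayers, 257 ± 108 CPM in LI crypts and 64.7 ± 4.67 CPM in LI monolayers. In SI monolayers the Paneth sum was 5925 to 6427 CPM, within the range of SI crypts.

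Retnlb was a gene of LI crypts. It stood at 715, 1097 and 670 CPM there, at 32.6, 46.6 and 73.9 CPM in SI crypts, at 3.65, 2.698 and 2.80 CPM in LI monolayers and at 2.80, 2.06 and 0.195 CPM in SI monolayers. The crypt groups were separate and the monolayer groups overlapped. The LI mean dropped 271-fold in culture, from 827 ± 235 to 3.05 ± 0.525 CPM, the largest fold of the 8 genes in either region, beside goblet marker sums of 17137 to 21651 CPM in LI crypts and 1635 to 1819 CPM in LI monolayers. The part of goblet cell number in this was not tested. The SI mean dropped 30.3-fold, from 51.1 ± 21.0 to 1.69 ± 1.34 CPM.

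SI monolayers 3 held 14 counts of Retnlb against 192 and 152 counts in the other 2 libraries. The acute phase gene Saa1, which was high in LI crypts and low in SI crypts, was also lowest in that library, at 3.97, 4.70 and 0.223 CPM in SI monolayers 1, 2 and 3. Other genes higher in LI differed in this. Car1 (8.63, 1.90 and 0.390 CPM) and Aqp8 (4.13, 3.61 and 1.48 CPM) were also lowest in SI monolayers 3. Slpi (9, 17 and 20 counts) and Wfdc2 (26.5, 31.8 and 28.9 CPM) were lowest in SI monolayers 1. Whether LI material reached SI monolayers 1 and 2 was not tested.

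Slpi was an LI gene that did not drop in culture. It stood at 25.7, 14.7 and 23.8 CPM in LI crypts and 40.6, 31.9 and 32.6 CPM in LI monolayers, so that all monolayer libraries were above all crypt libraries, by 1.64 times in the mean (35.03 ± 4.81 against 21.4 ± 5.86 CPM). SI libraries held 9 to 24 counts each, or 0.231 to 0.385 CPM in crypts and 0.131 to 0.279 CPM in monolayers, and overlapped between preparations. Slpi is also known from neutrophils. Elane and Mpo, granule genes of immature granulocytes, were at 0 in all 12 libraries, and Cxcr2 and Csf3r, receptors of mature cells, reached 0.318 and 0.292 CPM in LI crypts. Itgam, of the same marker list, was at 0.821 to 1.07 CPM in LI crypts and 0.0580 to 0.0854 CPM in LI monolayers. In SI it was at 3.06 to 3.78 CPM in crypts and 0.978 to 1.43 CPM in monolayers. Ngp and Mmp8 were at most at 0.0350 and 0.176 CPM in any library. The neutrophil list of 8 genes summed to 80.0 to 124 CPM in LI crypts, 169 to 176 CPM in LI monolayers and 4.33 to 5.95 CPM in SI, of which Ly6g made up 78.3 to 123 CPM in LI crypts and 169 to 176 CPM in LI monolayers. Its part in the Slpi levels was not tested.

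Lcn2, which inflamed colon is known to make in quantity, was scarce in every group. Its counts were 38, 34 and 26 in SI crypts, 2, 14 and 6 in SI monolayers, 72, 86 and 106 in LI crypts and 0, 4 and 6 in LI monolayers. That is 0.523 ± 0.142, 0.101 ± 0.0819, 1.16 ± 0.208 and 0.0522 ± 0.0463 CPM, and the monolayer groups overlapped, with SI monolayers 1 and LI monolayers 1 under the limit of detection and the other 4 monolayer libraries above it. Over the pooled counts, LI crypts were 22.8 times as high as LI monolayers (exact 95% interval 12.2 to 48.1, counting error only) and SI crypts 5.01 times as high as SI monolayers (3.1 to 8.4). Most small counts were even, so both mates of a read pair may have been counted. In that case these intervals, taken on counts that were not halved, are too narrow. By group means the LI fold was 22.3, and 14.9 without LI monolayers 1 or 34.1 without LI monolayers 3, and the SI fold was 5.18, and 9.28 without SI monolayers 2.

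**Figure D2:**
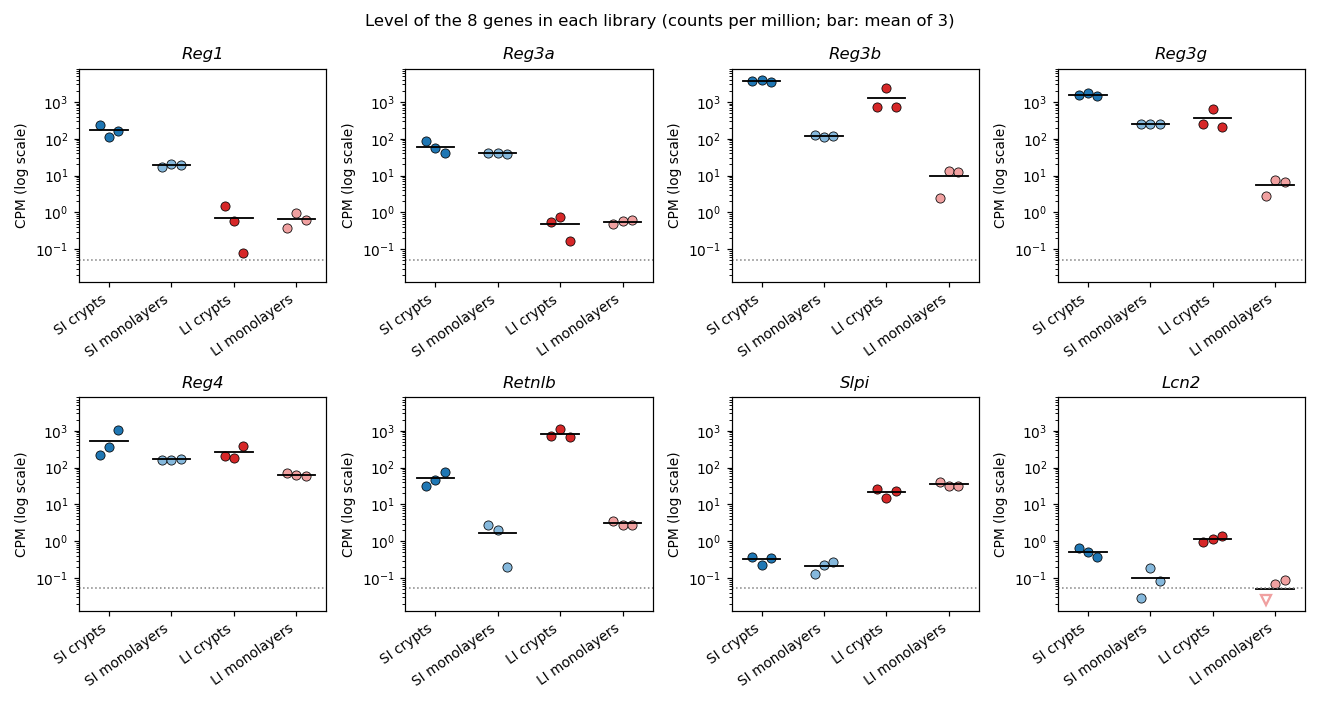
Level of each of the 8 genes in each library, in CPM on a log axis, by group (3 libraries each, bar at the mean). The dotted line marks the highest level that 3 counts give (0.0525 CPM), and the open triangle, at an arbitrary height, is the library with 0 counts of Lcn2. Reg3b, Reg3g, Reg4, Retnlb and Lcn2 are lower in monolayers than in crypts of both regions with no overlap, and Slpi is higher in LI monolayers than in LI crypts.

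On a per-length scale, the leading member differed between groups. Reg3b led in SI crypts at 4664 ± 374 CPM per kb, ahead of Reg3g at 2050 ± 244 and Reg4 at 532 ± 432. In SI monolayers the order was Reg3g at 329 ± 6.08, Reg4 at 163 ± 4.02 and Reg3b at 152 ± 9.17 CPM per kb, of which Reg4 and Reg3b overlapped. LI crypts were led by Reg3b at 1626 ± 1235 and Retnlb at 1189 ± 337 CPM per kb, whose libraries overlap. The lead of Reg3b rested on LI crypts 2, since per kb Retnlb was above Reg3b in LI crypts 1 and 3. LI monolayers were led by Reg4 at 63.4 ± 4.58 and Slpi at 39.99 ± 5.49 CPM per kb, with Reg3b at 12.1 ± 7.80.

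The first comparison asked how 24 h of monolayer culture moved these genes in SI. A gene is called here when its edgeR quasi-likelihood test gave an adjusted p under 0.05 and its log2 fold change was 1 or more in size. In SI, 6 of the 8 were called, all of them lower in monolayers: Reg3b by a log2 fold change of -4.94 ± 0.73 (SE), Retnlb by -4.93 ± 0.64, Reg1 by -3.16 ± 0.45, Reg3g by -2.64 ± 0.47, Lcn2 by -2.33 ± 0.59 and Reg4 by -1.70 ± 0.54. The same 6 had groups that did not overlap. Of all tested genes, 26.1% were called (9.71% higher and 16.4% lower) and 66.4% did not overlap, and since the 8 were chosen on these data nothing is read from the difference. Reg3a (-0.62 ± 0.30) and Slpi (-0.58 ± 0.47) were not called. The median log2 fold change was -2.49 for the 8 and -0.05 for all tested genes. The Reg4 call rested on few libraries: without SI crypts 3 the change was -0.80 and not called, and the call was also lost without any of the SI monolayer libraries (-1.69 to -1.66).

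In LI, 5 of the 8 were called, all lower in monolayers, and 6 did not overlap. Of all tested genes, 38.0% were called (14.5% higher and 23.5% lower) and 73.0% did not overlap. The called genes were Retnlb at -8.08 ± 0.69, Reg3b at -7.07 ± 0.81, Reg3g at -6.01 ± 0.56, Lcn2 at -4.45 ± 0.65 and Reg4 at -1.99 ± 0.55. Slpi was higher at 0.71 ± 0.19, under the minimum fold change of a call. Reg1 (-0.15 ± 0.84) and Reg3a (0.16 ± 0.61) were not called, at levels of 6 to 110 and 13 to 57 counts per library. The median was -3.22 for the 8 and -0.05 for all tested genes.

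A test of the difference between these changes, the interaction of region and culture, called 3 of the 8, against 20% of all tested genes (11.4% positive and 8.51% negative). Reg3g (3.37 ± 0.66) and Retnlb (3.15 ± 0.86) fell less in SI than in LI. Reg1 (-3.01 ± 0.98) fell in SI, whereas its LI groups overlapped at 6 to 110 counts per library, and its call was lost in 9 of 12 fits that left out 1 library (-3.19 to -2.54 in those fits). Without LI crypts 1 it was -4.11. The Retnlb call was lost without SI monolayers 1 (2.69), and without SI monolayers 3 the value was 3.79. Without LI crypts 2, Reg3g was 2.72. Reg3b (2.13 ± 0.90), Lcn2 (2.12 ± 0.91), Slpi (-1.29 ± 0.50), Reg3a (-0.77 ± 0.68) and Reg4 (0.29 ± 0.75) were not called, while DESeq2 called 6 of the 8, adding Reg3b, Lcn2 and Slpi. Slpi was also called without LI crypts 2 (-1.07) or LI crypts 1 (-1.44), Lcn2 without SI monolayers 1 (2.64) or LI monolayers 3 (2.89), and Reg4 without SI crypts 3 and LI crypts 2 together (1.39).

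**Figure D3:**
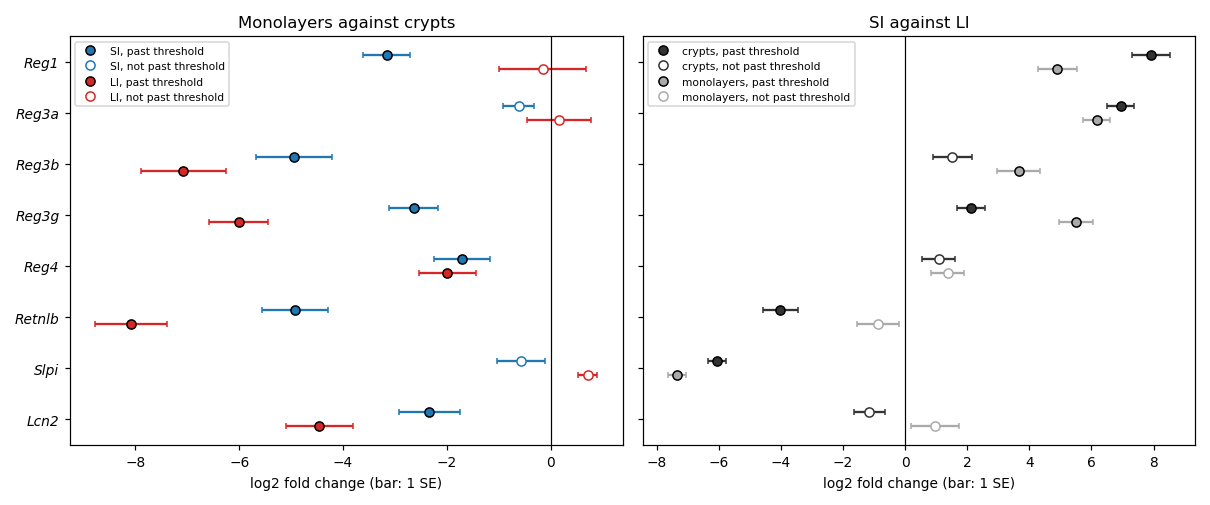
Log2 fold changes of the 8 genes with 1 SE from the edgeR fit of 12 libraries, for monolayers against crypts in SI and LI (left) and for SI against LI in crypts and in monolayers (right). Filled points are past the threshold and open points are not; 6 genes in SI and 5 in LI are called lower in monolayers.

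The next comparison set SI crypts against LI crypts, 5 of the 8 genes being called. Reg1 (7.91 ± 0.61), Reg3a (6.95 ± 0.44) and Reg3g (2.12 ± 0.46) were higher in SI, and Slpi (-6.05 ± 0.29) and Retnlb (-4.02 ± 0.56) were higher in LI. Reg3b (1.52 ± 0.63), Lcn2 (-1.16 ± 0.50) and Reg4 (1.08 ± 0.53) were not called, although the groups did not overlap for Reg3b and Lcn2, and 7 of the 8 did not overlap in all. Of all tested genes, 22.7% were called (11.6% higher and 11.1% lower in SI) and 58.6% did not overlap. Without LI crypts 2, Reg3b was called at 2.35 and Reg3g was 2.77, and without LI crypts 1, Reg1 was 9.02. Lcn2 was called by DESeq2 (-1.18), with no filter (-1.21), with halved counts (-1.16), with only the 2 groups (-1.22) and in 4 fits that left out 1 monolayer library (-1.23). Reg4 was called without SI crypts 1 (1.45). Without LI crypts 2 and SI crypts 3 together, a choice made after the data were seen, Reg4 was -0.024. The median was 1.30 for the 8 and 0.06 for all tested genes.

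Between SI and LI monolayers, 5 of the 8 were again called, though not the same ones. Reg3a (6.17 ± 0.43), Reg3g (5.49 ± 0.55), Reg1 (4.91 ± 0.61) and Reg3b (3.65 ± 0.70) were higher in SI monolayers, and Slpi (-7.34 ± 0.30) was higher in LI monolayers. Reg4 (1.37 ± 0.54) was not called, although its groups were separate, and it was called by DESeq2 (1.34), with only the 2 groups (1.37) and without SI crypts 1 (1.37) or SI crypts 3 (1.37), libraries of other groups that share the estimate of spread. The groups of Lcn2 (0.96 ± 0.76) and Retnlb (-0.86 ± 0.68) overlapped. In all, 6 of the 8 did not overlap. Retnlb, 16.2 times higher in LI than in SI crypts by the means, was 1.81 times higher in LI than in SI monolayers. Of all tested genes, 21.2% were called (12.4% higher and 8.88% lower in SI) and 62.4% did not overlap. The median was 2.51 for the 8 and 0.02 for all tested genes.

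Several of these genes spread widely among the crypt libraries of a group. The SD of Reg4 was 441 CPM of a mean of 543 in SI crypts and 4.10 of 167 in SI monolayers, and that of Reg3b was 967 of 1273 in LI crypts and 6.11 of 9.49 in LI monolayers. Crypt libraries came from separate mice and monolayer libraries from pooled wells, so the number of animals behind a library and the preparation cannot be told apart. In SI crypts, Reg4 and Retnlb were highest in library 3, as were the Paneth, goblet, stem and proliferating sums. Reg1, Reg3a, Slpi and Lcn2 were highest in library 1, as was the enterocyte sum. Reg3b and Reg3g were highest in library 2, as were the immune and surface colonocyte sums. In LI crypts, Reg3b, Reg3g, Reg3a and Retnlb were highest in library 2, as were the immune, goblet and surface colonocyte sums. The stem sum (489, 493 and 462 CPM in libraries 1, 2 and 3) and the proliferating sum (646, 718 and 715 CPM) were highest there by little. Reg1 and Slpi were highest in library 1, as were the Paneth sum and, by little, the enterocyte sum (563 CPM against 551 CPM in library 2). Reg4 and Lcn2 were highest in library 3, where the Paneth sum was lowest. These orders of 3 libraries were not tested. Slpi was lowest in library 2 of both regions.

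**Figure D4:**
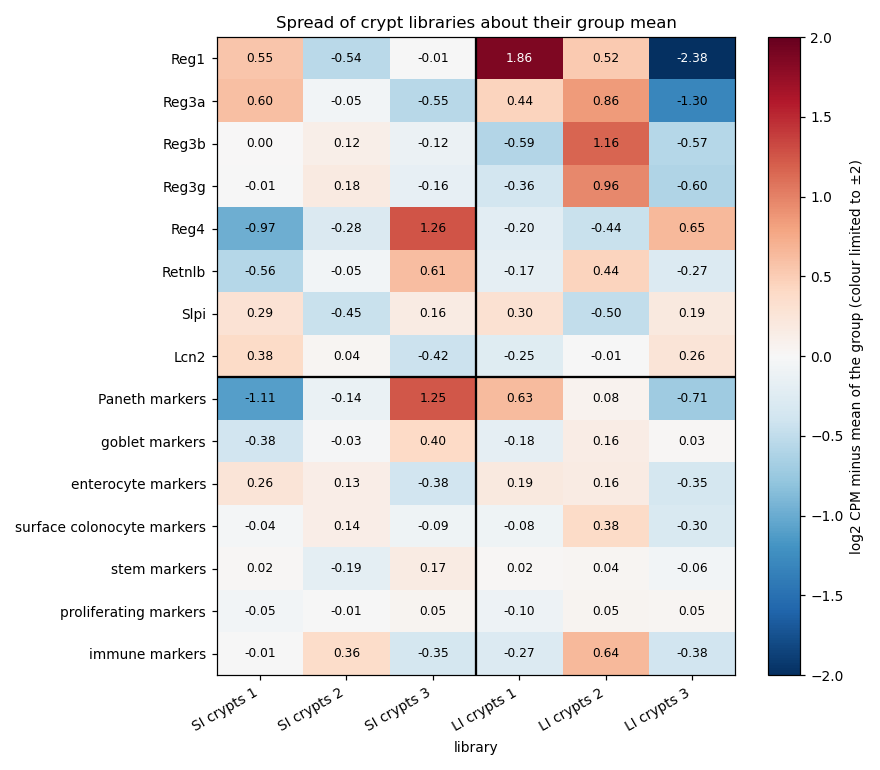
Deviation of each crypt library from the mean of its group, as log2 CPM, for the 8 genes (upper block) and for the summed levels of 7 cell type marker lists (lower block), with SI crypts in the 3 columns on the left and LI crypts in the 3 on the right. Red is above and blue below the mean. Reg3b and Reg3g deviate together in LI crypts 2 (1.16 and 0.96). Reg4 deviates with the Paneth markers in SI crypts 3 (1.26 and 1.25) and against them in LI crypts 3 (0.65 and -0.71).

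The genes nearest to each member were ranked by the root mean square difference of log2 CPM, each gene centred on its own mean, over the 12 libraries and 9206 candidates of at least 10 CPM. The measure describes likeness of profile alone. Reg1 was nearest to Fabp1 (0.497) and Ggt1, a gamma-glutamyltransferase (0.498), and Reg3a to the galectin Lgals2 (0.432) and the transcription factor Gata5 (0.434). Gata5 was at 68.2 to 79.8 CPM in SI crypts, 64.7 to 69.5 CPM in SI monolayers, 0.326 to 0.915 CPM in LI crypts and 1.03 to 1.46 CPM in LI monolayers. Reg3b was nearest to the ileal bile acid binding protein gene Fabp6 (0.573) and to Gm8989 (0.595). Fabp6 stood at 56.3 to 67.9 CPM in SI crypts, 1.75 to 2.45 CPM in SI monolayers, 8.38 to 12.8 CPM in LI crypts and 0.0290 to 0.307 CPM in LI monolayers, and like Reg3b it was lowest in LI monolayers 1.

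Reg3g was nearest to H2-T3, a nonclassical MHC gene (0.563), and Btnl1, a butyrophilin-like gene that intestinal epithelium shows to intraepithelial T cells (0.576). Reg4 was nearest to Creg1 (0.487) and H2afv (0.516), Slpi to Sycn (0.625) and Foxd2 (0.682), and Lcn2 to Abat (0.620) and Serhl (0.637). The neighbours of Lcn2 depended on the setting, and with candidates of at least 1 CPM the nearest was Fmo2 (0.372). For Retnlb, Hsd11b2 was among the 2 nearest (1.12). Among the members themselves the closest pairs were Reg1 with Reg3a (1.07) and Reg3b with Reg3g (1.095).

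The other Reg and resistin genes were scarce. Of 5 (Reg2, Reg3d, Retn, Retnla and Retnlg), Reg3d and Retnla had enough counts to be tested, and the others had 0 to 10 counts per library. Reg3d, a Reg3 gene between Reg3b and Reg3a, was higher in SI crypts (0.391 ± 0.0634 CPM) than in LI crypts (0.0489 ± 0.0284 CPM; log2 fold change 2.96 ± 0.80, adjusted p = 0.00611, edgeR). In LI monolayers it had 0 counts in all libraries, against 24 counts over SI monolayers, which puts SI monolayers at least 7.31-fold higher when 3 counts over the group are taken as the floor. Of these counts 18 came from SI monolayers 1, and without that library the bound was 2.69-fold. Retnla (RELMα) fell in LI culture (-4.89 ± 1.34, adjusted p = 0.00747), from 0.0807, 1.54 and 0.391 CPM in LI crypts, highest in LI crypts 2, to 4 counts over the 3 LI monolayer libraries. None of the 5 was called in SI culture or for the interaction.

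Other inducible defence genes of the epithelium did not all move with the members. In a list of 25 such genes, also chosen with earlier results known, 22 were tested. In SI monolayers 6 were higher and 9 lower than in SI crypts (median -1.30, against -0.05 for all tested genes), and in LI monolayers 5 were higher and 13 lower than in LI crypts (median -2.27). The genes that fell in both regions were Duox2 and Duoxa2 (the epithelial NADPH oxidase and its maturation factor), Saa3, Pigr, Lypd8, Ang4, Ccl28 and Steap4, and those that rose in both were Cxcl2, Sprr1a and Wfdc2. Of these, Saa3, Steap4 and Cxcl2 had only 4 to 30 counts in each SI library, so their SI changes rest on few counts. Pigr, which carries IgA across the epithelium, fell from 5277 ± 299 to 502 ± 1.13 CPM in SI and from 5641 ± 222 to 339 ± 14.1 CPM in LI, and Ang4, a secreted ribonuclease, from 2392 ± 1834 to 232 ± 3.77 CPM in SI and from 580 ± 278 to 8.61 ± 2.29 CPM in LI. Pigr and Ang4 were picked for naming after their values were seen.

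Sprr1a, a cornified envelope protein, rose in SI culture by 6.33 ± 0.28 (adjusted p = 5.53e-08, edgeR), from 3.22 to 4.48 CPM in crypts to 301 to 330 CPM in monolayers. Defb1, a beta-defensin, fell there (-5.19 ± 0.72, adjusted p = 4.84e-05). In LI culture the acute phase genes Saa1 and Saa2 fell, Saa1 from 1609, 1175 and 1776 CPM to 15.001, 14.1 and 14.7 CPM (-6.70 ± 0.71, adjusted p = 2.90e-05) and Saa2 from 5.12 to 6.30 CPM to 0.0580 to 0.102 CPM (-6.21 ± 0.53, adjusted p = 7.08e-08). Cxcl5, a neutrophil-attracting chemokine, differed between regions in its response (interaction -4.75 ± 0.52, adjusted p = 1.15e-05), since it stood at 42.5 to 45.1 CPM in LI monolayers and at most at 1.19 CPM elsewhere.

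Between SI and LI crypts, 5 of the list were higher and 14 lower in SI (median -1.44, against 0.06 for all tested genes), and between monolayers 7 were higher and 10 lower (median -0.79, against 0.02). Defb1 had 823 counts over SI crypts and 2 over LI crypts, a ratio of 490 (exact 95% interval 135 to 4049, counting error only). This interval too was taken on counts that were not halved and may be too narrow. Saa1 was lower in SI crypts (-7.50 ± 0.74, adjusted p = 2.98e-05). Between monolayers, Itln1, the lectin intelectin of Paneth and goblet cells, was higher in SI (6.42 ± 0.70, adjusted p = 6.16e-05) and Cxcl5 lower (-6.40 ± 0.27, adjusted p = 1.00e-09). For the interaction, 10 were positive and 2 negative (median 0.77, against -0.00), led by Saa1 at 5.20 ± 0.89 (adjusted p = 0.00144).

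**Figure D5:**
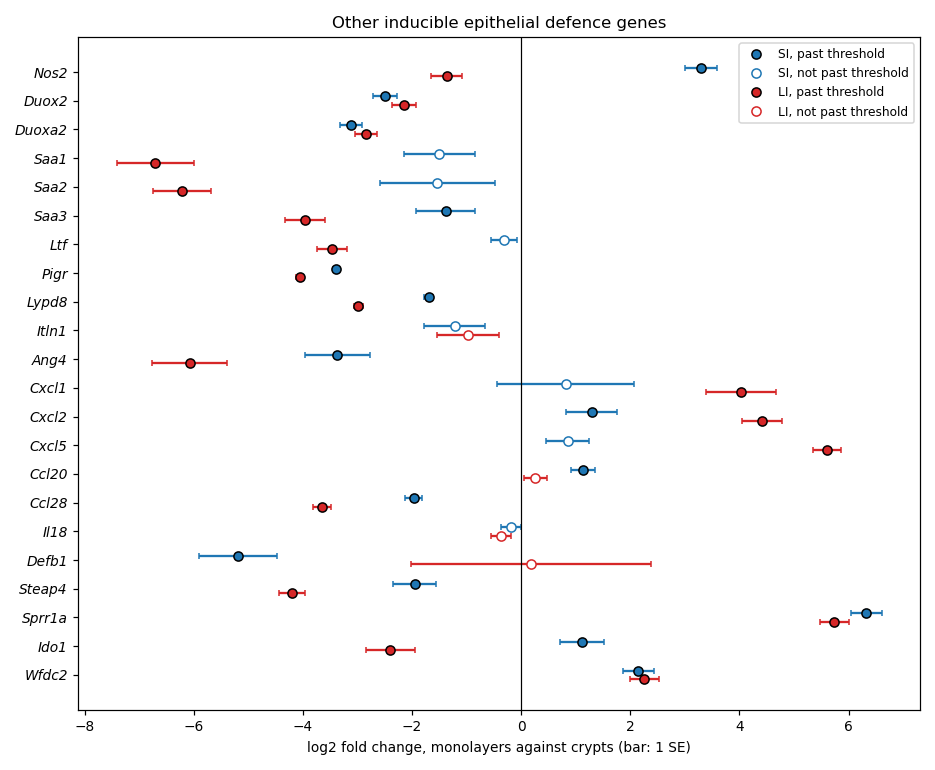
Log2 fold changes with 1 SE of the 22 tested genes of the list of other inducible defence genes, monolayers against crypts, in SI and in LI (edgeR fit of 12 libraries). Filled points are past the threshold. Sprr1a, Wfdc2 and Cxcl2 (at 6 to 30 counts per SI library) rise in both regions, whereas Pigr, Ang4, Duox2 and Duoxa2 fall in both.

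A list of receptors, adaptors and transcription factors known to act upstream of defence genes in epithelium was chosen in the same way. Of its 27 genes, all tested, 3 were higher and 2 lower in SI culture (median -0.07) and 4 higher and 7 lower in LI culture (median -0.03). Socs3, a STAT3 target that restrains its signalling, fell in both regions, from 42.1 to 48.4 CPM to 11.96 to 13.7 CPM in SI (-1.84 ± 0.11, adjusted p = 9.96e-10, edgeR) and from 17.2 to 24.9 CPM to 2.91 to 3.18 CPM in LI (-2.75 ± 0.12, adjusted p = 1.17e-11). Cebpd, a transcription factor of the acute phase response, fell in LI from 63.3 to 80.3 CPM to 3.27 to 4.78 CPM (-4.09 ± 0.15, adjusted p = 1.26e-11), and its change differed between regions (interaction 3.16 ± 0.20, adjusted p = 2.33e-08). Stat3 itself, chosen for naming after its values were seen, was at 119 to 151 CPM in crypts and 101 to 110 CPM in monolayers of either region. The IL-22 receptor gene Il22ra1, named likewise, was at 38.1 to 45.2 CPM in SI crypts and 49.0 to 54.6 CPM in SI monolayers. In LI it was at 23.2 to 24.9 CPM in crypts and 31.6 to 33.5 CPM in monolayers. Neither gene was called in any comparison, since no log2 fold change reached 1 in size. Without overlap, Il22ra1 was higher in monolayers (0.32 ± 0.07 in SI and 0.45 ± 0.07 in LI) and Stat3 was lower (-0.36 ± 0.07 and -0.31 ± 0.07). Besides Socs3, Il17rc was called lower in culture of both regions, and Rela (1.37 ± 0.05 in SI and 1.93 ± 0.05 in LI) and Tlr4 were called higher. Myd88 was not called (-0.08 ± 0.06 in SI and -0.03 ± 0.06 in LI). Rela, Il17rc and Myd88 were also named after their values were seen.

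Regional differences in this list were led by the transcription factor gene Gata4 and the lipopolysaccharide receptor gene Tlr4 in both preparations. Gata4 was higher in SI by 6.37 ± 0.26 in crypts (adjusted p = 2.52e-08, edgeR) and 5.51 ± 0.25 in monolayers (adjusted p = 6.01e-08), at 133 to 192 CPM in SI and 1.28 to 3.23 CPM in LI. Tlr4 was higher in LI, with SI-to-LI log2 fold changes of -5.38 ± 0.16 in crypts (adjusted p = 3.06e-13) and -5.03 ± 0.14 in monolayers (adjusted p = 1.55e-13), and it rose in SI culture by 1.81 ± 0.19 (adjusted p = 4.75e-07) to 1.39 to 1.90 CPM. In all, 4 genes of the list were higher and 7 lower in SI crypts (median 0.00), and 2 higher and 5 lower in SI monolayers (median -0.13). The interaction called 4 positive and 1 negative (median -0.05), with the oncostatin M receptor gene Osmr at 3.18 ± 0.58 (adjusted p = 0.000315) beside Cebpd. Osmr rose in SI culture (1.61 ± 0.50, adjusted p = 0.0106) and fell in LI culture (-1.57 ± 0.31, adjusted p = 0.000329). It stood at 2.43 to 2.88 CPM in LI crypts, 0.667 to 1.30 CPM in LI monolayers and at most at 0.279 CPM in SI.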

How the data were processed

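Libraries were grouped by their labels into SI and LI crypts and SI and LI monolayers, 3 each. The authors aligned paired-end reads to GRCm38 with STAR 2.7.9a, counted them on GENCODE genes with featureCounts 2.0.2, and deposited raw counts per gene and a normalized signal, in which a DESeq2 size factor of each library divides its counts; their text does not state strand or mate counting. Of small counts (1 to 20), 73.4% to 77.4% were even, so halved counts were an alternative.

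Counts were filtered (filterByExpr, 19581 genes), scaled by TMM and fitted by edgeR 4.0.16 (R 4.3.3) with robust quasi-likelihood in 1 model of 4 group means; p-values were adjusted by Benjamini-Hochberg over all tested genes. SE is the absolute log2 fold change over the root of F. CPM for nearest genes had a prior count of 2. The deposited signal served as an alternative scale. The 8 members, the lists and the rule were chosen with earlier results of these data known. The rule names all members, the 2 nearest genes of each and, per list and comparison, the 2 called genes of largest fold without overlap. A nearest gene of Retnlb is not reported here. Replicates of a group differed by 1.48 to 3.02 times counting noise and were kept apart. Same-numbered libraries of different groups did not deviate together (r -0.0516 to 0.0563). The p-values measure the spread of these samples. The intervals cover counting error only, on counts that were not halved, so they are too narrow if both mates were counted. Sequences are from RefSeq (GRCm38.p6), where 7 members had an entry, and positions from GENCODE vM21; 55141 of 55487 genes were named. The fit was tested on simulated data. Alternatives were DESeq2 1.42.0, other scalings and filters, no fold minimum, a replicate block, only the groups compared, and each library left out.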

Additional observations from a re-analysis of the deposited data

Results flagged for a closer look

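The change in culture differed between SI and LI, by a test of the interaction in the edgeR fit, for 3 of the 8 genes and for 17 genes of the lists. The interaction log2 fold changes were -3.01 for Reg1, 3.37 for Reg3g and 3.15 for Retnlb, which were chosen with these results known. Among the other defence genes they were 5.20 for Saa1, 4.68 for Saa2, 4.66 for Nos2, 3.51 for Ido1, 3.15 for Ltf, 2.71 for Ang4, 2.58 for Saa3, 2.25 for Steap4, 1.68 for Ccl28, 1.29 for Lypd8, -3.12 for Cxcl2 and -4.75 for Cxcl5. Among the receptors, adaptors and transcription factors they were 3.18 for Osmr, 3.16 for Cebpd, 2.16 for Tlr2, 1.79 for Cdx1 and -1.35 for Il6st. Reg3g, Retnlb, Saa1 and Cebpd fell more in LI than in SI or fell in LI alone by the threshold, Cxcl5 was high in LI monolayers alone, Nos2 and Ido1 rose in SI and fell in LI, and Osmr rose in SI, at or under 0.279 CPM, and fell in LI. In each SI library, Saa2 had 0 to 9 counts and Saa3, Steap4 and Cxcl2 had 4 to 30, so their interactions rest on few counts there. Genes beyond the naming rule are given here because the same test called them.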

How the results depend on the processing

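Of the 40 log2 fold changes (8 genes in 5 comparisons), all kept their direction under upper quartile normalization, DESeq2 size factors in edgeR, halved counts, no filter, no fold minimum, the DESeq2 Wald test and, where they could be fitted, only the 2 groups compared (31 values) and at least 10 counts in every library (25 values). DESeq2 called 6 of the 8 for the interaction, against 3 in edgeR. With at least 10 counts in every library, 5 members were left, of which 3 were called between SI and LI crypts and 3 between SI and LI monolayers, since fewer genes were tested. Leaving out each library in turn, the members called ranged from 5 to 6 in SI culture, 5 to 5 in LI culture, 5 to 7 between crypts, 5 to 6 between monolayers and 2 to 4 for the interaction. Directions changed in these fits for uncalled values: Reg1 in LI culture (-0.69 to 0.95), Reg3a in LI culture (-0.26 to 0.60) and the Reg4 interaction (-0.11 to 1.18). The Reg4 call in SI culture was lost without SI crypts 3 (-0.80), without any SI monolayer library, and with only the 2 groups compared (-1.68). Reg3b between crypts was called without LI crypts 2 (2.35), without LI monolayers 1 (1.45) and by DESeq2 (1.498). The Retnlb interaction was lost without SI monolayers 1 (2.69). Without SI crypts 3 and LI crypts 2, an alternative added after the data were seen, Reg4 between crypts was -0.024. Lcn2 between crypts was called by DESeq2 and with no filter, halved counts or 2 groups (-1.22 to -1.16), and Reg4 between monolayers by DESeq2 and with 2 groups (1.34 to 1.37). Leaving out LI crypts 2 moved Reg3b and Reg3g in LI culture to -6.24 and -5.36, leaving out SI monolayers 2 moved Lcn2 in SI culture to -3.12, and leaving out LI monolayers 3 moved Lcn2 in LI culture to -5.18. The cause was not tested.

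The replicate number as a block left the members called at 6, 5, 5, 5 and 3 in the 5 comparisons. For the interaction it lost Reg1 (-2.99) and gained Slpi (-1.31). Whether a number marks a shared mouse is not stated. Of the 16 nearest genes, 12 were kept with a minimum of 1 CPM and 13 on the authors' normalized signal. Neither neighbour of Lcn2 was kept on that signal, where Txndc16 (0.787) and Mcoln2 (0.812) were nearest. Counts of 0 to 14 for Lcn2 in monolayers limit its folds.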
